A study of Homo sapiens with 2 samples.

Results

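The genes described are those of the mitochondrial ribosomal proteins, taken as every gene whose symbol begins with MRPL or MRPS followed by a number. They were 74 of the 18417 genes measured, with 48 MRPL genes named for the large subunit of the mitochondrial ribosome and 26 MRPS genes named for the small subunit. The symbols set the membership, but the family itself was chosen by its log2 differences between these same 2 arrays, which earlier results had shown to be mostly negative, so its overall direction is a description and not an independent finding. The data came from HepG2, an established human hepatoma cell line kept in MEM medium, on 2 Affymetrix arrays. The control array held RNA of untreated HepG2 cells. The SiO2-NP array held RNA of HepG2 cells given silica nanoparticles at 100 mg/L for 24 h. Each group held 1 array, so no value below has a replicate error and no test could be run.

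Mitochondria carry their own ribosome, which translates the few messenger RNAs made from mitochondrial DNA. Those messages encode subunits of the respiratory chain and of ATP synthase. The ribosomal RNAs are made inside the organelle, while all the ribosomal proteins are encoded in the nucleus, made in the cytosol and imported. The large subunit forms peptide bonds and releases the chain through an exit tunnel, and the small subunit binds the message and reads its codons. Part of the proteins have bacterial counterparts, and others were added in the evolution of mitochondria.

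The promoters of these genes are shown first, because short sequence motifs recur in them. Of the 74 members, 66 had an entry in the RefSeq promoter table of GRCh38.p14, which runs from 250 bases before to 50 bases after each transcription start. The first entry of each gene was used, and both strands were searched. The letters CCGGAAG, the core bound by ETS factors such as GABPA, were found in 28 of the 66 promoters (42.4%), against 10.7% of all 27305 promoters in the table. Among the 7530 promoters of genes at or above the median array level the share was 20.8%. The letters AAGATGGC, a core recognised by YY1, were found in 18 members (27.3%), against 3.03% of all promoters and 6.28% of those at or above the median level. The letters GCATGCGC, part of the palindrome bound by NRF1, were found in 6 members (9.09%), against 3.27% of all promoters and 5.78% at or above the median level. The TATA box letters TATAAA were found in 2 members (3.03%), against 3264 of all 27305 promoters and 5.34% of those at or above the median level. The shares were not matched for base composition. A match is a description of letters and not a bound site.

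The windows below run from 100 bases before to 30 after the start, 5′ to 3′ on the gene's strand, with matches to the ETS, YY1 and NRF1 letters in capitals. They belong to the 3 members with the largest negative difference, to MRPL46, which shares its promoter region with MRPS11, and to the 2 members with the largest positive difference.
MRPS33, chr7:141014923-141015052, minus strand: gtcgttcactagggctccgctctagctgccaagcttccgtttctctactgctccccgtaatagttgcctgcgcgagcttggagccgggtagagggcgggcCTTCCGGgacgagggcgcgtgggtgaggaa
MRPL1, chr4:77862730-77862859, plus strand: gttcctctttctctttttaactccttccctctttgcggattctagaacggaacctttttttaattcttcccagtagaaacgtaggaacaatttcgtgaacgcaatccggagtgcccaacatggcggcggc
MRPL47, chr3:179604609-179604738, minus strand: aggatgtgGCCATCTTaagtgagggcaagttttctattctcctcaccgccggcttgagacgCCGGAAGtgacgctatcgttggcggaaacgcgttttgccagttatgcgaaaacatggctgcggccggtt
MRPL46, chr15:88467359-88467488, minus strand: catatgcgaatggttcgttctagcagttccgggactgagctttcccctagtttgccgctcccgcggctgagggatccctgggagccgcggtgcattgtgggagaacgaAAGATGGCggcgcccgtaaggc
MRPL34, chr19:17292473-17292602, plus strand: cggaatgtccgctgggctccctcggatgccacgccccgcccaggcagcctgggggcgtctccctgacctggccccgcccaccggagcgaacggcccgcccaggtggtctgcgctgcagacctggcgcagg
MRPL57, chr13:21176558-21176687, plus strand: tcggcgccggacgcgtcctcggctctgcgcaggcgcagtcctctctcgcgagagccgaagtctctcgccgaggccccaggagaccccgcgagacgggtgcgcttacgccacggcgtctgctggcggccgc
The MRPS33 and MRPL47 windows each held 1 ETS match, and the MRPL47 and MRPL46 windows each held 1 YY1 match. The MRPL1, MRPL34 and MRPL57 windows held none of these letters. Over all members the 19 YY1 matches lay mostly on the gene's own strand (15), and 13 of these began between 6 and 35 bases after the start. Of the 37 ETS matches 17 lay on the gene's own strand, all of them before the start, and 33 of the 37 on either strand lay in the last 100 bases before the start or after it.

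**Figure D1:**
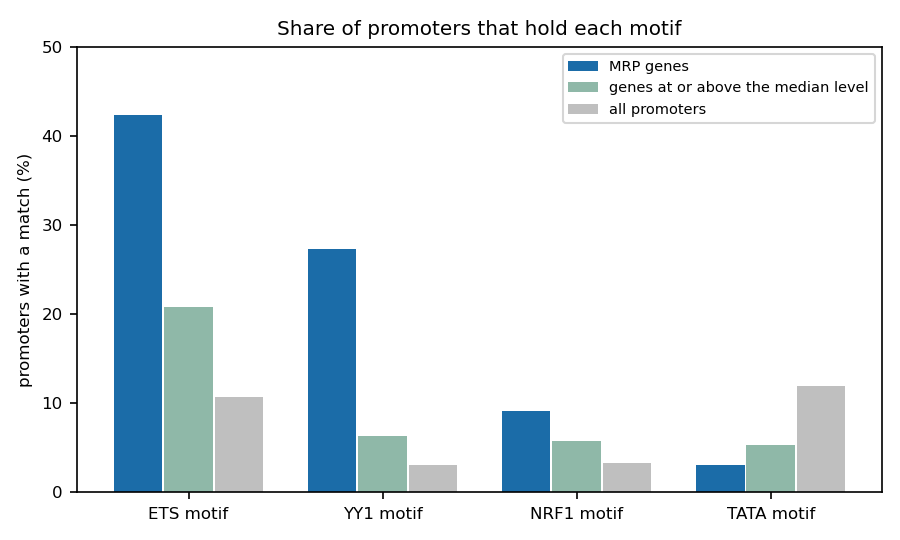
Share of promoters with a match to each motif (percent, both strands) for the 66 MRP genes with an entry, for 7530 genes at or above the median array level and for all 27305 entries. ETS and YY1 letters were found in 42.4% and 27.3% of the MRP promoters, against 20.8% and 6.28% of those at or above the median level.

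Members with and without these promoter letters differed between the arrays by similar amounts. The difference is the log2 intensity in the SiO2-NP array minus that in the control array, so a negative value means a lower signal after exposure. Members with the ETS letters had a median difference of -0.13, as had the 38 members with an entry but without them. For the YY1 letters the medians were -0.16 with a match and -0.12 without, and for the NRF1 letters they were -0.15 and -0.13.

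Most members of both subunits were lower in the SiO2-NP array, each by a small amount. The median difference over the 74 members was -0.12, which is 1.09-fold lower, and the members ranged from -0.48 to 0.08. Of the 74 members, 65 were below the control, against 47.6% of all genes measured. At least 1.2-fold lower were 10 members, against 6.47% of all genes, and no member was 1.2-fold higher, against 8.26% of all genes. Higher genes were fewer at the level of most members. Of the 9209 genes at or above the median level, which 71 members reached, 275 were at least 1.2-fold higher and 693 lower. No member was 1.5-fold lower or higher, against 0.369% and 0.331% of all genes. In RNA of a whole culture, fewer cells holding a transcript and less of it per cell cannot be told apart.

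Both subunits had nearly the same median. The 48 large subunit genes had a median of -0.13 and 43 were below the control. The 26 small subunit genes had a median of -0.12 and 22 were below the control. At least 1.2-fold lower were 7 large subunit and 3 small subunit genes. All genes measured had a median difference of 0.01.

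**Figure D2:**
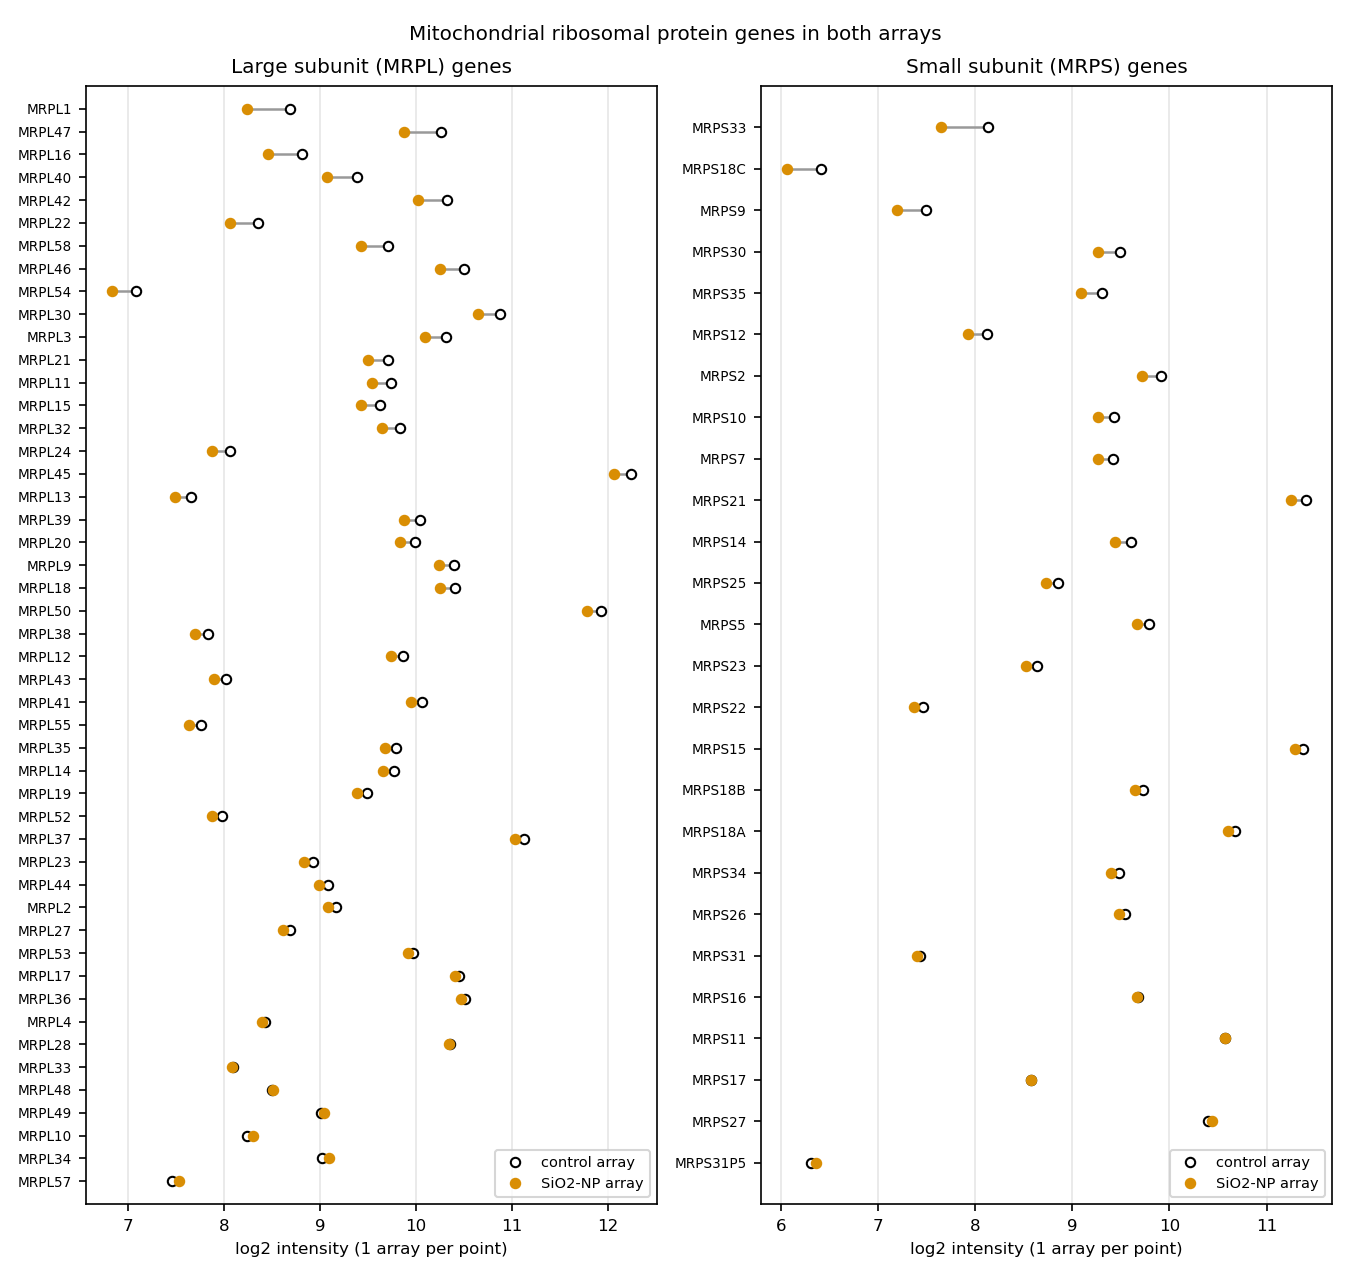
Log2 intensity of every MRP gene in the control array (open points) and the SiO2-NP array (filled points), with 1 array per point, large subunit on the left and small subunit on the right, ordered by difference. The filled point lies to the left of the open one in 43 of 48 large subunit and 22 of 26 small subunit genes, most widely in MRPL1 and MRPS33.

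Signal level matters for this comparison, because bright genes in general were slightly lower in the SiO2-NP array and dim genes slightly higher. The 9209 genes at or above the median level of all genes, a log2 intensity of 7.26, had a median difference of -0.03, and 59.8% of them were below the control. Of the 74 members, 71 reached that level, and 63 of those were below the control. MRPS18C, MRPL54 and the pseudogene MRPS31P5 did not reach it. Between log2 intensities of 9 and 10, where 28 members lay, the members had a median of -0.14 and 26 were below the control, while all 2193 genes of that range had a median of -0.04. Between 8 and 9 the 13 members had a median of -0.09 against -0.04 for all 2972 genes, and between 10 and 11 the 14 members had -0.14 against -0.03 for all 1100 genes. In the range from 7 to 8 the median was -0.12 over 11 members against -0.00 over all 3162 genes.

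After each difference was centred on the running median of genes of like level, the members' median was -0.10, and 62 of 74 lay below it, as did 49.9% of all genes. The large subunit then had a median of -0.11 and the small subunit one of -0.08. After quantile normalization of the 2 arrays the medians were -0.09 and -0.08. Below the control were then 38 of 48 large subunit genes, 21 of 26 small subunit genes and 44.1% of all genes. The direction of the family's median was thus the same under each of these scalings, at a smaller size.

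**Figure D3:**
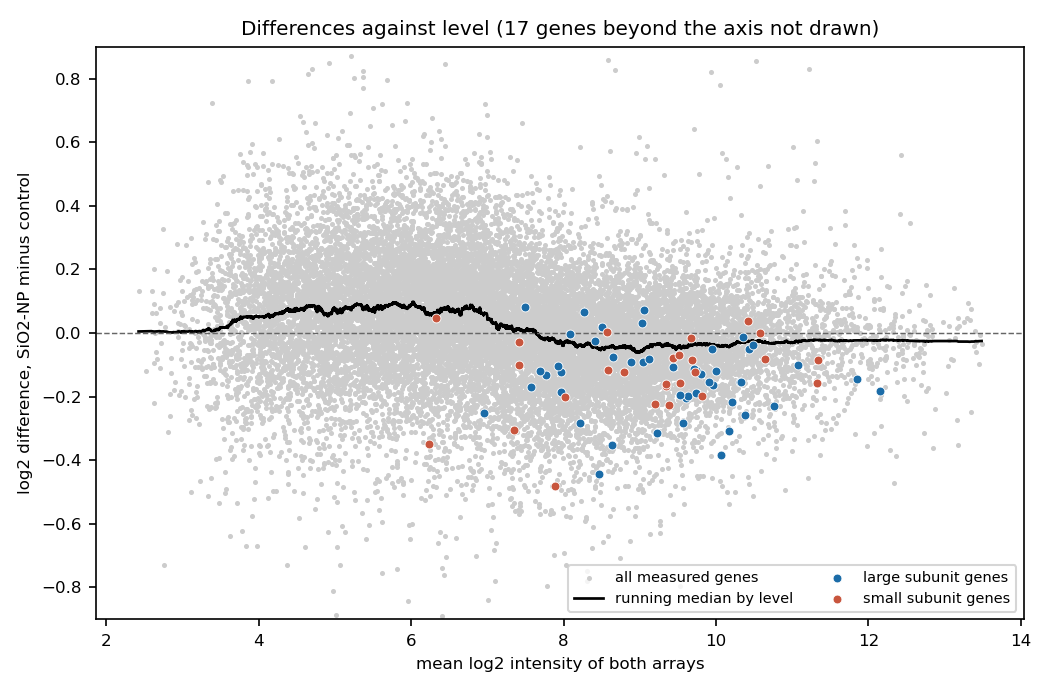
Log2 difference (SiO2-NP minus control) against the mean log2 intensity of both arrays, for all measured genes (grey, 17 genes beyond the axis not drawn), large subunit genes (blue) and small subunit genes (red), with the running median by level in black. The black line lies above 0 at low levels and below 0 from about the middle of the range, and 62 of the 74 coloured points lie below it.

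In the large subunit, MRPL1 had the largest difference. Its log2 intensity was 8.69 in the control and 8.24 after SiO2-NP, which is 1.36-fold lower. MRPL1 is the counterpart of the bacterial protein at the mobile stalk where used transfer RNA leaves the ribosome. MRPL47, at the mouth of the exit tunnel, read 10.26 and 9.88, a difference of -0.38. MRPL16, which lies close to the site of peptide bond formation, read 8.81 and 8.46, or 1.28-fold lower.

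The next members of the large subunit differed by about the same amount as each other. MRPL40, a protein of the central protuberance that has no bacterial counterpart, read 9.38 in the control and 9.07 after SiO2-NP. MRPL42, also specific to mitochondria, read 10.33 and 10.02. MRPL22, whose bacterial counterpart lines the exit tunnel, read 8.35 and 8.07. MRPL58, also known as ICT1, is a peptidyl-tRNA hydrolase built into the ribosome that can release stalled chains, and it read 9.71 and 9.43. MRPL46, another protein of the central protuberance, read 10.51 and 10.25. The differences of these 5 genes lay between -0.31 and -0.26.

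A small set of large subunit genes lay above the control. MRPL57, a small protein specific to mitochondria, differed by 0.08 (7.45 and 7.53), the largest positive difference of the family. MRPL34 differed by 0.07 (9.02 and 9.10) and MRPL10, at the base of the stalk that recruits translation factors, by 0.07 (8.24 and 8.30). MRPL49 and MRPL48 differed by 0.03 and 0.02. MRPL33 was at -0.00. Without replicates these values cannot be told from no difference.

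Most genes in each of the 3 parts of the large subunit that were listed lay below the control. So did 65 of the 74 members of the family and 59.8% of all genes at or above the median level. The parts were not tested against these shares. All 9 genes of the polypeptide exit site (MRPL17, MRPL22, MRPL23, MRPL24, MRPL39, MRPL44, MRPL45, MRPL47 and MRPL50) lay under their control values, and their median was -0.16. Of the 8 genes of the central protuberance 7 were below, with a median of -0.14, and MRPL48 was the exception. In the stalk 4 of 5 were below, with a median of -0.13, and 3 of 5 after quantile normalization, with a median of -0.08. Within the stalk MRPL54 had -0.25, MRPL11 -0.20, MRPL12 -0.13 and MRPL53 -0.05, while MRPL10 was above the control. Proteins with a bacterial counterpart had a median of -0.14 over 30 genes, 28 of them below the control. Those without one had -0.12 over 17 measured genes, 14 of them below.

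In the small subunit, MRPS33 had the largest difference of the whole family. It is a protein of the head of the small subunit, without a bacterial counterpart, and its log2 intensity was 8.13 in the control and 7.65 after SiO2-NP, or 1.40-fold lower. MRPS18C read 6.41 and 6.06, or 1.27-fold lower, at a level where the signal is dim. MRPS9, whose bacterial counterpart reaches the transfer RNA in the peptidyl site, read 7.50 and 7.19, or 1.24-fold lower.

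Smaller negative differences followed in genes of several parts of the small subunit. MRPS35 of the head differed by -0.22 (9.31 and 9.09). MRPS12, whose bacterial counterpart sits at the decoding centre, differed by -0.20 (8.12 and 7.92), and MRPS2 by -0.20 (9.92 and 9.72). MRPS10 and MRPS7, both of the head, differed by -0.17 and -0.16. The 7 measured MRPS genes of the head lay under their control values, as did 22 of the 26 small subunit genes. The median of the 7 was -0.17. DAP3, a head protein without an MRPS symbol, is not among these 7 and was above its control value (0.03).

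The small subunit genes with the highest values were near 0. MRPS31P5, at 0.05, is listed as a pseudogene and is no working ribosomal protein. MRPS27, a pentatricopeptide repeat protein, differed by 0.04 (10.40 and 10.43), and MRPS17 and MRPS11 both differed by 0.00. MRPS16, of the body of the subunit, differed by -0.02. Small subunit proteins with a bacterial counterpart had a median of -0.16 over 13 measured genes, 11 of them below the control. Those without one had -0.10 over 9 genes, 8 of them below, and a median of -0.06 after quantile normalization. Of all 26 small subunit genes 22 were below.

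The name of a member does not always give its place. MRPS30 and MRPS18A carry small subunit names but sit in the large subunit of the human mitochondrial ribosome. MRPS30 read 9.50 in the control and 9.27 after SiO2-NP, a difference of -0.23, and MRPS18A read 10.68 and 10.60, a difference of -0.08. MRPS18A, MRPS18B and MRPS18C are paralogues that descend from a shared bacterial ancestor, and of them MRPS18C had the largest difference (-0.35), while MRPS18B also had -0.08. Further subunit proteins have unrelated symbols and were not counted among the 74. Of these, CHCHD1 differed by -0.26 and PTCD3 by -0.15. DAP3, a GTP-binding protein of the head, differed by 0.03, and GADD45GIP1 of the large subunit by 0.01.

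Annotation and probes limit single values. The RefSeq gene table lists 77 protein-coding MRPL and MRPS genes, and 4 of them (MRPL51, MRPS6, MRPS24 and MRPS28) have no probe with only their symbol and were left out. It also lists 106 pseudogenes with such names, so a probe may read more than its own gene. Probes of 3 members were averaged. MRPL20 and MRPS18B had identical values in all their probes, while the 2 probes of MRPL36 differed in sign, at 0.14 (10.37 and 10.52) and -0.22 (10.64 and 10.42), so its mean of -0.04 stands for neither.

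Several members share a promoter region with a gene that runs the other way. Among members with a promoter entry, 17 had such a neighbour outside the family whose start lay within 1000 bases and which was measured on the arrays. Of these 17 neighbours 13 had negative differences (median -0.11), against 47.6% of all genes and 59.8% of those at or above the median level. Of the 17 members in these pairs 14 were below the control, and in 12 pairs both genes were below. MRPS18C (-0.35) lies head to head with HELQ (-0.36), a DNA helicase, and MRPL30 (-0.23) with MITD1 (-0.23). MRPS12 (-0.20) lies opposite SARS2 (-0.17), the mitochondrial seryl-tRNA synthetase. Other pairs differed in sign. MRPL54 differed by -0.25 and APBA3, which starts 990 bases away, by 0.28. A closer neighbour of MRPL54, at 42 bases, was not measured. HELQ, MITD1 and APBA3 all lay below the median level. Within the family MRPL46 and MRPS11 start 320 bases apart, and they differed by -0.26 and 0.00. These neighbours were looked at after the values of the members were known.

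Other genes of mitochondrial translation showed differences of the same size as the ribosomal proteins. Of 13 measured translation factors 12 had negative differences (median -0.15). The share with a negative difference was 47.6% of all genes and 59.8% of those at or above the median level. MTIF3, an initiation factor, read 7.73 in the control and 7.25 after SiO2-NP. GFM1, the elongation factor that moves the ribosome along the message, read 8.78 and 8.41. Only these 2 factors were at least 1.2-fold lower, against 6.47% of all genes and 7.53% of those at or above the median level. The inner membrane insertase OXA1L, at 0.02, was the factor above the control. Assembly factors of the mitochondrial ribosome had a median of -0.13 over 24 genes, 21 of them below the control, with the largest differences in FASTKD2 (-0.33) and the ribosomal RNA methyltransferase MRM1 (-0.31). The mitochondrial aminoacyl-tRNA synthetases, which load transfer RNAs with amino acids, had a median of -0.12 over 16 genes, 14 of them below, led by FARS2 (-0.32) and LARS2 (-0.23). After quantile normalization their median was -0.07, with 12 below.

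Genes that copy and transcribe mitochondrial DNA or handle its RNA had a median of -0.13 over 18 measured genes, 16 of them below the control, and one of -0.08, with 14 below, after quantile normalization. TEFM, the mitochondrial transcription elongation factor, read 7.52 and 7.03, and TFAM, which packages and transcribes mitochondrial DNA, read 9.43 and 9.04. The polymerase gene POLG differed by 0.24 in the other direction. Import genes, on which the ribosomal proteins depend to reach the organelle, had a median of -0.23 over 12 genes, 10 of them below. Among genes at or above the median level 59.8% were below, and among all genes 47.6%. TIMM23, the channel of the inner membrane, had -0.51 at a dim level and shares sequence with its copy TIMM23B, and the receptor TOMM70 had -0.35.

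Regulators known to act on nuclear genes for mitochondria had a median of -0.01 over 9 genes, 5 of them below the control. The sign of that median depended on the scaling: it was 0.01 around the running median and 0.04 after quantile normalization, with 4 below in both. GABPA, an ETS factor, read 7.80 and 7.57 as the mean of its probes, a difference of -0.24, but its brightest probe gave 0.01. NRF1 differed by -0.19, GABPB1 by -0.16, YY1 by 0.04, MYC by -0.01 and the coactivator PPARGC1A by 0.02. PPARGC1B differed by 0.31 at a dim level.

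Ribosomal proteins of the cytosol had a median of -0.07 over 66 genes, 58 of them at or above the median level. They ranged from -0.53 in RPL22L1 to 0.30 in RPL3L, and the genes at both ends lay below that level. The list was taken by symbol, so it also holds paralogues of ribosomal proteins, among them RPL22L1 and RPL3L. RPL26 had the next largest negative difference, -0.50. Around the running median their median was -0.05, with 43 below, and after quantile normalization it was -0.04, with 39 below. As deposited, 47 of the 66 were below the control, against 47.6% of all genes and 59.8% of those at or above the median level. At least 1.2-fold lower were 14 and at least 1.2-fold higher 2, against 6.47% and 8.26% of all genes. Among the 9209 genes at or above the median level, 693 were that much lower and 275 that much higher. The mitochondrial family ranged from -0.48 to 0.08, with 10 of 74 lower and 0 higher at that fold. The difference between the families was not tested.

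**Figure D4:**
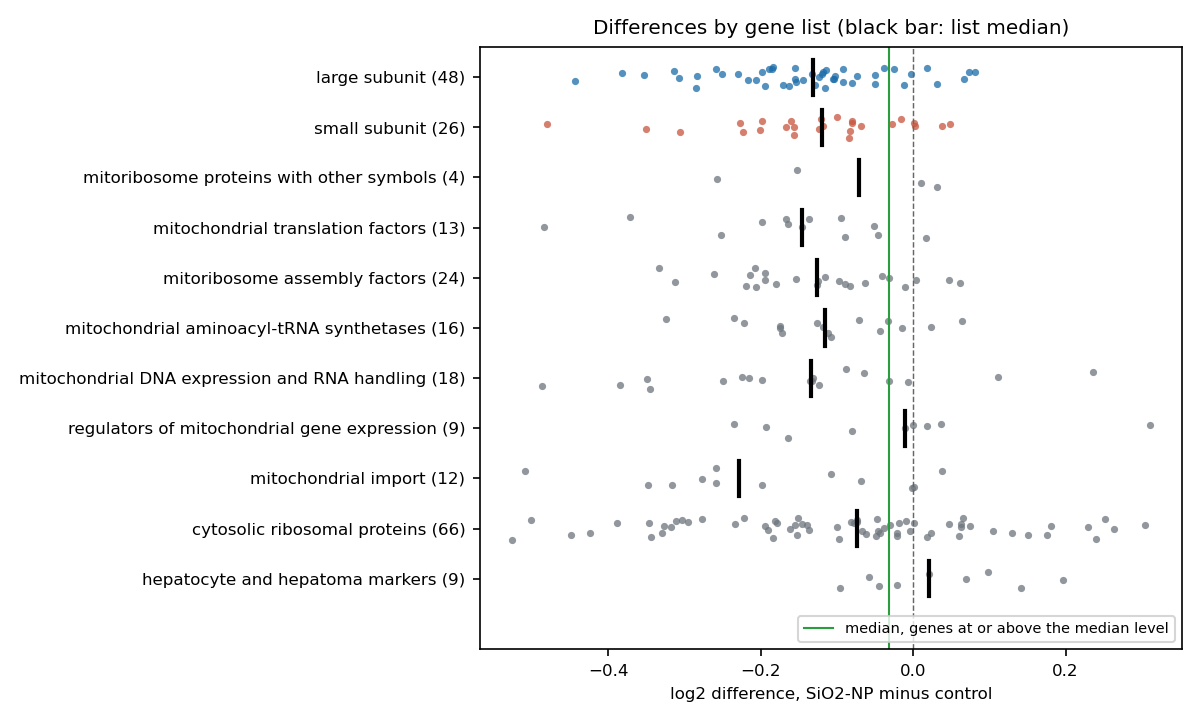
Log2 difference (SiO2-NP minus control) of each measured gene in 11 lists, with the number of genes in brackets, the list median as a black bar and the median of genes at or above the median level (-0.03) in green. The bars of both ribosomal subunits (-0.13 and -0.12) lie beside those of translation factors (-0.15), assembly factors (-0.13) and synthetases (-0.12), while that of the regulators lies at -0.01.

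The markers of the labelled cell type were bright, but so was 1 leukocyte marker. All 9 measured hepatocyte and hepatoma markers, among them ALB, AFP and GPC3, reached the median level, with a median difference of 0.02 and the largest values in TTR (0.20) and TF (0.14). Of the markers of other cell types, 1 of 6 for fibroblasts (COL1A1), 1 of 5 for leukocytes (LYZ) and 0 of 5 for endothelium reached it. LYZ read 13.23 in the control and 13.27 after SiO2-NP, about as bright as AFP (13.06 and 13.04). Most of these markers were higher in the SiO2-NP array, as were most dim genes. Of all 2607 genes between log2 intensities of 5 and 6, 32.2% were below the control, and their median was 0.08. Among fibroblast markers 5 of 6 were higher (median 0.15, COL1A1 0.25 and COL1A2 0.17), and so were all 5 leukocyte markers (median 0.08). CSF1R (0.40) and CD3E (0.30) were at least 1.2-fold higher at dim levels, against 8.26% of all genes. The endothelial markers had a median of 0.01, with TEK at 0.24 and KDR at -0.13. Around the running median the fibroblast median was 0.10, the leukocyte median 0.06 and the endothelial median -0.07, with 4 of 5 endothelial markers below. The part of such cells in the differences of the ribosomal genes was not tested.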

How the data were processed

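Per the labels, biotin-labelled material was made from about 300 ng of total RNA per sample. The deposited table holds 1 log2 intensity per probe (a transcript cluster) and array, for 33297 probes. The log2 scale was read from the values, 2.08 to 14.4, with array medians of 6.65 (control) and 6.69 (SiO2-NP). RMA and MAS5 are named in the submitters' processing notes, without version; which made the values is not given in the sources used here. Precision is limited by the number of arrays.

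Probes with exactly 1 gene symbol in the platform annotation (19460) were averaged per gene, which gave 18417 genes. Probes with several symbols (1754) or none (12083) were left out. All 74 members had a gene identifier in RefSeq GRCh38.p14 with the same symbol. No gene was filtered out for the counts over all genes. A level at or above the median gene mean is a level and not a detection call.

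With 1 array per group no test was run, and lists are given by counts and medians beside those of all genes. The members, the lists and the naming rule were chosen with earlier results of these data known. The rule named the 8 lowest and 5 highest members of each subunit, members of the structural groups, the 2 genes farthest from 0 in every other list, and members with unusual probes or names. Promoter neighbours, further list genes and well-known markers were named after their values were seen. The fold thresholds were 1.2 and 1.5. Alternatives covered scaling, level, probe choice, annotation and membership. Only the difference and the running-median centring were checked on permuted data, with added shifts larger than any difference in the family. Quantile normalization and the motif and neighbour searches were not checked in this way. The work was done in Python 3.11.15 with pandas 2.3.3 and NumPy 2.4.6, and plots were drawn with matplotlib 3.10.9.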

Additional observations from a re-analysis of the deposited data

Results flagged for a closer look

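Both results come from probes that the comparison left out because the annotation gives them more than 1 gene, and both were higher in the SiO2-NP array. The probe listed for MRPS6 and SLC5A3 read 9.24 in the control and 9.45 after SiO2-NP, a difference of 0.21, and which of these genes it reads was not tested. The probe listed for URGCP-MRPS24 and URGCP read 7.42 and 7.45, a difference of 0.035. Of the other such probes, that of MRPS28 and TPD52 differed by -0.46, that of URGCP-MRPS24 and MRPS24 by -0.24, and that of MRPL51 and SPTLC1 by -0.10.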

How the results depend on the processing

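The medians of the family and of both subunits stayed negative under all 9 alternatives. Several of these could change little. Among members, probe choice altered MRPL36 alone, median centring moved all genes alike, and the median-level filter kept 71 of 74. The family median lay between -0.14 and -0.09, and the numbers below the control stayed within 1.5 times. The small subunit median went from -0.12 to -0.076 after quantile normalization. The number of members at least 1.2-fold lower was 10, and it was 4 of the 49 members at or above the 75th percentile of level, where fewer members were counted, and 34 at a threshold of 1.1-fold. The median over all measured genes, 0.01, was -0.0025 after median centring, 0.00 around the running median by construction, 0.022 after quantile normalization, and -0.031 and -0.036 for genes at or above the median and the 75th percentile of level. Differences were recomputed under 4 alternatives for 115 genes, which are all members and the other genes given with a value in the report, apart from EME1 and RPL3L. Of these 460 values 2 moved by 0.1 or more, both with the brightest probe: MRPL36 to -0.22 and GABPA to 0.01. Few values could move that far. Median centring shifts all genes by the same small amount, and the brightest probe changes no gene with 1 probe, as 71 members had. The count is thus no measure of the stability of single values. The regulator list median turned from -0.01 to 0.01 and 0.04 under running-median centring and quantile normalization, and that of the endothelial markers from 0.01 to -0.07 and -0.03. The medians of the paralogues of MRPS18 and of the subunit proteins with other symbols, -0.08 and -0.07, were -0.03 and -0.02 after quantile normalization. No paired analysis was possible because there was a lone array for every group, and no replicate could be left out for the same reason. The differences are small, and with 1 array per group none can be told from variation between cultures or arrays.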
